A study of Mus musculus with 17 samples.

Results

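The genes described here are 37 genes of mitosis and the G2/M transition, taken from a named list of cyclins, mitotic kinases, kinesins, centromere proteins, condensins and cytokinesis factors. They were 37 of the 24416 genes in the count tables, and the list goes by what the genes are known to do, with no threshold on a measured value, although earlier results of these data were known when it was drawn up. RNA was sequenced from common myeloid progenitors, the bone marrow and fetal liver cells that give rise to granulocytes, monocytes, red cells and platelets. The cells had been sorted by flow cytometry from mice, in 17 libraries of 7 groups. Bone marrow gave wild-type (3 libraries), let-7b/c knockout (3 libraries), inducible LIN28B (2 libraries) and inducible LIN28B under vavcre (2 libraries) samples. Fetal liver gave wild-type (3 libraries), Lin28b knockout (3 libraries) and inducible let-7 (1 library) samples. The let-7b/c knockout mice are labelled albino black 6 and all the others C57BL/6J. Every sample carries the same treatment text, that Lin28b was overexpressed after doxycycline, also the wild types and knockouts, so which mice received the drug cannot be read from the labels. The design text describes vavcre, a Cre recombinase driven by a promoter of blood-forming cells, as limiting induction to the blood system. Ages are not given, and the tissue is the only stage label. Library numbers below are those in the labels. Nothing says that the numbered libraries came from separate mice, so the p-values speak only of how much these libraries vary, which may be technical.

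A dividing cell builds its mitotic proteins anew in each cycle. Cyclin A and cyclin B activate the kinase Cdk1, Plk1 and Aurora B drive spindle assembly and chromosome alignment, the checkpoint protein encoded by Bub1b holds anaphase back, and Cdc20 and Ube2c then direct the anaphase-promoting complex to degrade the cyclins. Most of these genes are transcribed in late S phase and G2 by a shared machinery of B-Myb, FoxM1, the MuvB proteins and NF-Y, so their messages usually rise and fall with the share of cells in G2 and mitosis. Progenitors of the blood system divide often, and mitotic messages are abundant in them.

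NF-Y binds the letters CCAAT, and the MuvB proteins bind an element (CHR) whose letters are TTTGAA in its common form and TTCGAA in a rarer one. RefSeq promoter windows of GRCm38.p6, from 250 bases before to 50 bases after the transcript start, were at hand for 31 of the 37 genes (33 windows). The windows of Aurkb, Ccna2, Incenp, Kif20a, Smc4 and Tpx2 were not used here. The stretches before the gene of 6 members are shown because these members carry the contrasts below: Ube2c and Mki67 rose the most in the labelled knockout, Bub1b the least, and Plk1, Cdca8 and Cdc20 rose with vavcre. Each is written 5′ to 3′ on the gene's strand, with these letters, on either strand, in capitals. They lie at chr2:164769729-164769928 (Ube2c, plus strand), chr7:135716451-135716579 (Mki67, minus strand), chr2:118598011-118598201 (Bub1b, plus strand), chr7:122159235-122159434 (Plk1, plus strand), chr4:124936918-124937117 (Cdca8, minus strand) and chr4:118437344-118437543 (Cdc20, minus strand), and none of the bases lies inside the annotated span of its gene.
Ube2c: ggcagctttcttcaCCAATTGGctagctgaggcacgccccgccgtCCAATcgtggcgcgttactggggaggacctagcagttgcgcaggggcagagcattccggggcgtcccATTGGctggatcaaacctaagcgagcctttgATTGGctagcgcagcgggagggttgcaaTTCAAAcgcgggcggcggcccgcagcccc
Mki67: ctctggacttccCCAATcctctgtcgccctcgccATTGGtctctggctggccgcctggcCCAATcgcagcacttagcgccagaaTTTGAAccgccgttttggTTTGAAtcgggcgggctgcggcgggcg
Bub1b: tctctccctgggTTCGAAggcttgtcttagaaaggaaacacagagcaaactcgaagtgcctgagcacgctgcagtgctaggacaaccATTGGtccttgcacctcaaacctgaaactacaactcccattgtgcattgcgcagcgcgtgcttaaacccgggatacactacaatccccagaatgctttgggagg
Plk1: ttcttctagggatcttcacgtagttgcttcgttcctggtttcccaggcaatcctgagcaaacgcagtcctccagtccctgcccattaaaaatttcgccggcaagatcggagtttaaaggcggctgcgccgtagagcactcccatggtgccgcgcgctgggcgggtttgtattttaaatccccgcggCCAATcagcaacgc
Cdca8: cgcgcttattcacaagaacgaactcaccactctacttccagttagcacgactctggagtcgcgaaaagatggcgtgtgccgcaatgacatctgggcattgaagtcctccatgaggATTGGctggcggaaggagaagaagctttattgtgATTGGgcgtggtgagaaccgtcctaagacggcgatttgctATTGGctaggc
Cdc20: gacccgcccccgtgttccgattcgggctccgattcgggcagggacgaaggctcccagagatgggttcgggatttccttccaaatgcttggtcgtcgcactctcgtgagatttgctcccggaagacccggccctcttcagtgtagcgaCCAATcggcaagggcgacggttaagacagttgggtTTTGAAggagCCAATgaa
CCAAT was found in 28 of the 33 member windows (84.8%), against 37.4% of all 32851 windows of the same length. TTTGAA was found in 27 (81.8%), against 17.9% of all windows, and 25 windows (75.8%) held both, against 6.95%. TTCGAA was found in 2 windows (6.06%, against 1.56%), those of Bub1b and Top2a. More than 1 CCAAT stood in 18 windows (54.5%, against 11.7%). In Ube2c the palindrome at the upstream end reads as CCAAT on both strands, so its overlapping matches are counted separately. The TTTGAA of Plk1 and of Cdca8 lies after the transcript start and is therefore not in the printed stretch, at positions 31 and 14 counted from the start, and that of Bub1b is at position 41. The windows of Birc5, Ncaph and Nusap1 held none of these letters. Among 113 other mitosis genes (103 windows of 91 genes) both motifs stood in 27.2% of windows, and among 50 G1/S and DNA replication genes (49 windows of 40 genes) in 8.16%.

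The libraries held between 14957111 and 28165554 counts each. In the 3 libraries labelled Lin28b knockout the targeted gene was not reduced: Lin28b was at 111.9, 88.92 and 110.7 CPM (reads relative to the TMM-adjusted total of the library), against 89.33, 99.61 and 123.6 CPM in wild-type fetal liver, so these libraries are called the labelled Lin28b knockout throughout. They also stood apart in markers of other cells. All 20 tested erythroid markers were higher in them than in wild-type fetal liver, with a summed level of 42048 to 48637 CPM against 581 to 873 CPM. Also higher were 14 of 17 granulocyte, 12 of 13 hepatocyte (1 lower), 7 of 9 stroma and endothelium and 7 of 8 megakaryocyte markers (1 lower). Of 8 progenitor markers 5 were lower (1 higher), and their summed level was 3380 to 5876 CPM against 5682 to 7203 CPM. Most of that sum was Mpo, which is also on the granulocyte list (5571, 3167 and 3399 CPM against 4806, 6296 and 5221 CPM). Of the erythroid markers, Hba-a1 and Hbb-bt had 0 counts in the labelled knockout. The progenitor markers Kit, Cebpa, Runx1 and Ly6a had 0 counts in every library. They have 2, 5, 4 and 6 listed transcripts, and reads that fit several transcripts of a gene were set aside. These zeros therefore say little about the level of the genes. Alignment records of multiply placed reads numbered 0.345 to 0.406 per unique record in the labelled knockout and 0.114 to 0.163 elsewhere. A read can give several such records, so these are not shares of reads. The part that these other cells and reads play in the values below was not tested.

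Of the 37 members, 31 had 10 or more counts in at least 2 libraries, and 28 reached 10 counts in all 17. The counts below are over these 28 unless stated. The tables hold counts per transcript, and reads that fit several transcripts of a gene were set aside, which lowers genes with many listed transcripts: all 9 members outside the 28 have 2 to 6 transcripts, and all but 2 of the 28 have 1. Tpx2 and Prc1, which organise spindle microtubules, had 0 counts throughout. Cenpa, Smc2, Ect2 and Racgap1 had at most 14 counts in any library, and Ttk, Kif20a and Nusap1 at most 50. These low values say little about the level of the genes. Birc5 (136 to 686 counts) and Kif2c (28 to 123 counts), with 2 transcripts each, are measured on few of their reads. Every other gene of the 28 had at least 1157 counts in each library.

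The 28 genes fell into 2 levels across the libraries. Their summed level was 17380 to 19295 CPM in the labelled Lin28b knockout and 5754 to 8623 CPM in the other 14 libraries. For 22 of the 28 genes, a count not made over all genes, all 3 labelled knockout libraries stood above every other library. The exceptions were Plk1, Aurkb, Bub1b, Cdca8, Smc4 and Kif2c, and for the first 5 of these the libraries with vavcre reached the same range. The labelled knockout had the highest group mean for 24 genes, and inducible LIN28B with vavcre had it for Aurkb, Bub1b and Cdca8 and was next in order for 14 more. The inducible let-7 library was the lowest group for 8 genes and the let-7b/c knockout for 7. Between these ends the wild-type groups, the let-7b/c knockout and inducible LIN28B without vavcre lay close together: the median of the 28 genes, as log2 CPM relative to the wild-type bone marrow mean, was between -0.19 and 0.11 in all 11 of these libraries, 0.36 and 0.30 in the libraries with vavcre, 0.14 in the inducible let-7 library, and 1.09 to 1.23 in the labelled knockout. In bulk RNA a larger share of dividing cells and more message per dividing cell cannot be told apart.

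**Figure D1:**
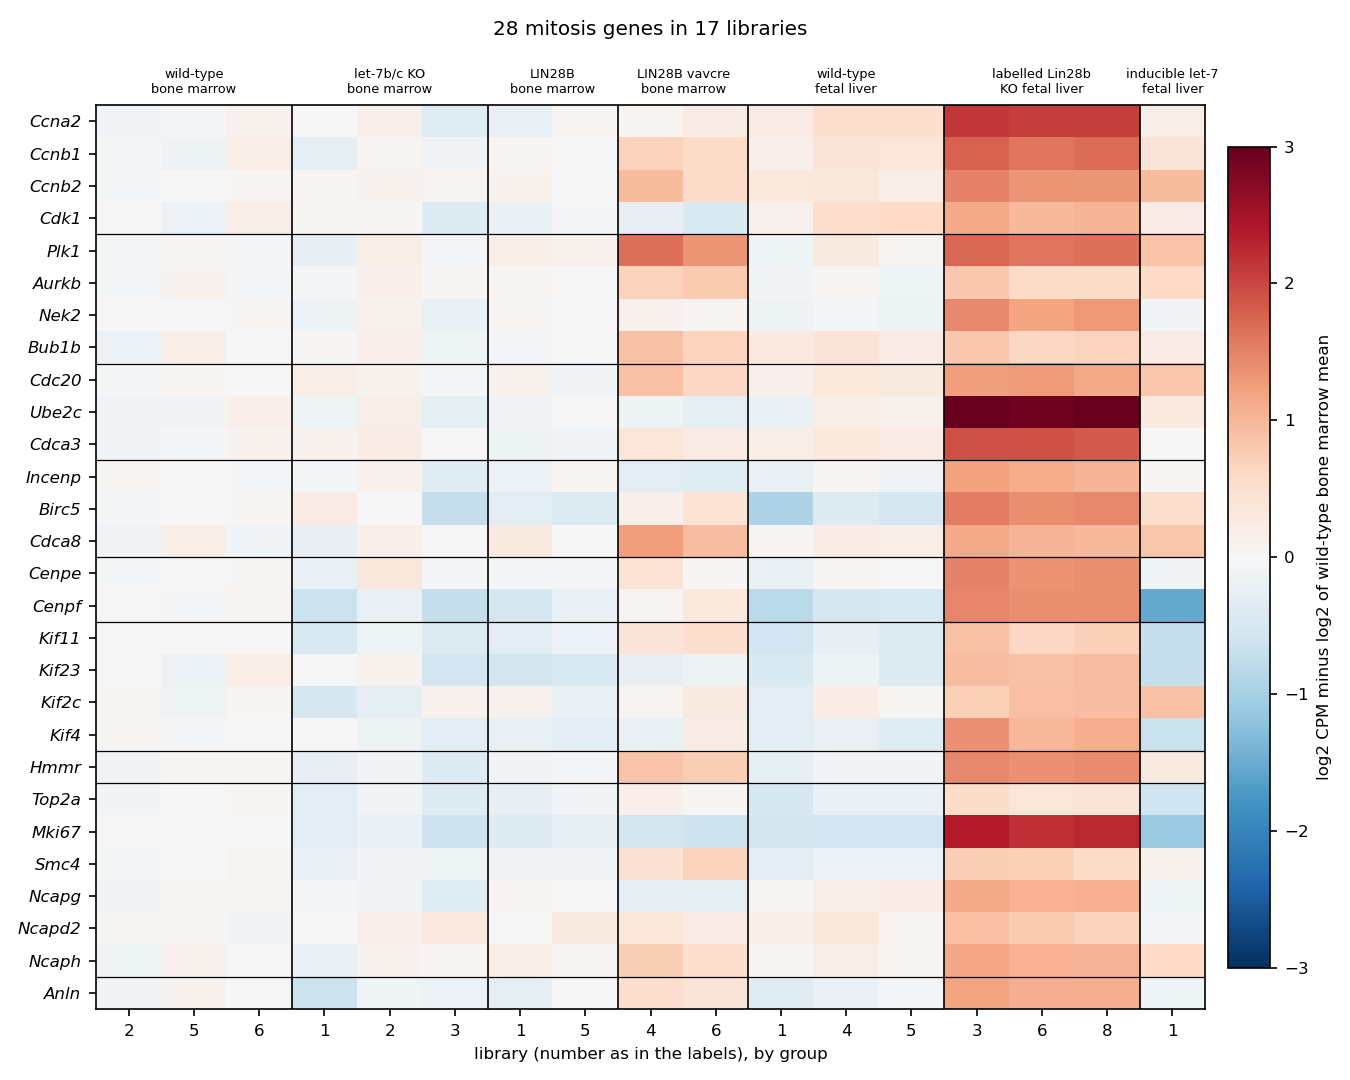
Log2 CPM of 28 mitosis genes (rows, grouped by role with black lines) in 17 libraries (columns, grouped by label), minus the log2 of the wild-type bone marrow mean. The 3 labelled Lin28b knockout libraries are red in every row, most deeply for Ube2c and Mki67, and the libraries with vavcre are red in some rows (Plk1, Cdca8) and blue in others (Mki67, Cdk1).

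Libraries of a group also differed in common across the genes. The median coefficient of variation of a gene was 5.59% in wild-type bone marrow, 12.8% in the let-7b/c knockout, 9.03% in wild-type fetal liver and 5.69% in the labelled knockout (n = 3 each). Among the let-7b/c knockout libraries, library 2 was the highest for 22 of 28 genes. In wild-type fetal liver, library 4 was the highest for 22 genes and library 1 the lowest for 20, and in the labelled knockout library 3 was the highest for 26. A difference of the whole list between 2 groups can therefore rest on 1 library, and is given with and without it where that matters.

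The labelled Lin28b knockout was compared with wild-type fetal liver. All 28 genes were called higher, by edgeR's quasi-likelihood test at a Benjamini-Hochberg adjusted p under 0.05 over 13558 genes, where 20.8% of all genes were called higher and 23% lower. For each of the 28 the 3 labelled knockout libraries stood above the 3 wild-type libraries, a count not made over all genes. The median log2 difference was 1.24, against 0 over all genes tested, with a range from 0.39 (Bub1b) to 3.0 (Ube2c), and 17 genes were at least 2-fold higher. The genes thus moved in 1 direction but by unequal amounts.

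The largest differences were in a ubiquitin enzyme and a proliferation marker. Ube2c, the E2 enzyme of the anaphase-promoting complex (chr2:164769929-164772902), was at 1325, 1133 and 1222 CPM in the labelled knockout and at 130, 169 and 161 CPM in wild-type fetal liver, a log2 difference of 3.0 (SE 0.13, 95% interval 2.71 to 3.29, adjusted p = 9.35e-11). Mki67, the chromosome-coating antigen Ki-67 (chr7:135689784-135716450), was at 5266, 4598 and 4826 CPM against 690, 680 and 676 CPM, a log2 difference of 2.84 (SE 0.09, adjusted p = 4.31e-12). The groups did not overlap in either gene. Of the other genes linked to the anaphase-promoting complex, Cdca3, which helps remove the mitotic inhibitor Wee1, rose by 1.65 (SE 0.08) and Cdc20, the activator of the complex, by 0.98 (SE 0.09).

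Among the cyclins, Ccna2 rose the most, from 318 ± 31.1 to 1012 ± 22.9 CPM (mean ± SD, n = 3 each), a log2 difference of 1.67 (SE 0.12). Ccnb1 and Ccnb2 rose by 1.38 (SE 0.11) and 1.11 (SE 0.09). Their partner Cdk1 rose by 0.62 (SE 0.14, adjusted p = 0.00175), from 210, 271 and 287 CPM to 417, 378 and 385 CPM, the smallest value of the 4.

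Among the kinases, Plk1 (chr7:122159435-122169884) rose from 128, 171 and 151 CPM to 468, 434 and 446 CPM, a log2 difference of 1.58 (SE 0.12). Nek2, which separates centrosomes, rose by 1.43 (SE 0.09). Aurkb rose by 0.71 (SE 0.09), from 183, 200 and 177 CPM to 343, 289 and 283 CPM. Bub1b had the smallest rise of the list, from 258, 271 and 249 CPM to 365, 319 and 332 CPM (log2 difference 0.39, SE 0.10, adjusted p = 0.00493). In the chromosomal passenger complex, which carries Aurora B to the centromere and the midzone, Incenp rose by 1.22 (SE 0.11), Cdca8 (borealin) by 0.88 (SE 0.12) and Birc5 (survivin) by 2.12 (SE 0.23), the last from 7.86 ± 1.5 to 34.2 ± 1.75 CPM.

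The kinetochore gene Cenpf rose from 101, 124 and 128 CPM to 486, 467 and 467 CPM (log2 difference 2.01, SE 0.13), and the kinetochore motor Cenpe by 1.46 (SE 0.13). Of the kinesins, Kif4, a chromosome-bound motor, rose by 1.47 (SE 0.12), Kif23 of the midzone by 1.25 (SE 0.15), and Kif11, which pushes the spindle poles apart, by 1.15 (SE 0.10). Kif2c, a microtubule-depolymerising kinesin with few counts, rose from 1.77, 2.80 and 2.41 CPM to 4.21, 4.81 and 4.87 CPM (log2 difference 0.99, SE 0.31, adjusted p = 0.0166). The spindle gene Hmmr rose by 1.57 (SE 0.09) and the contractile-ring gene Anln by 1.33 (SE 0.13). The condensin genes rose within a narrow range: Ncaph by 0.98, Ncapg by 0.93, Smc4 by 0.90 and Ncapd2 by 0.60 (SE 0.08 to 0.10). Top2a, which untangles the DNA that condensins compact, rose by 0.76 (SE 0.10), from 783, 950 and 947 CPM to 1629, 1441 and 1462 CPM.

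Outside the 28, Nusap1 was higher as well (0.499, 0.377 and 0.516 CPM against 2.58, 2.70 and 2.54 CPM, log2 difference 2.47, SE 0.59), and Ttk and Kif20a were not called (adjusted p = 0.666 and 0.193). These 3 passed the minimum in part through the groups where they are high. With library sizes computed without the erythroid, hepatocyte, granulocyte and stroma lists, 29 of 31 members were still higher, and the median was 1.24. Only Kif2c lost its call when 1 library was left out (wild-type fetal liver 1).

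**Figure D2:**
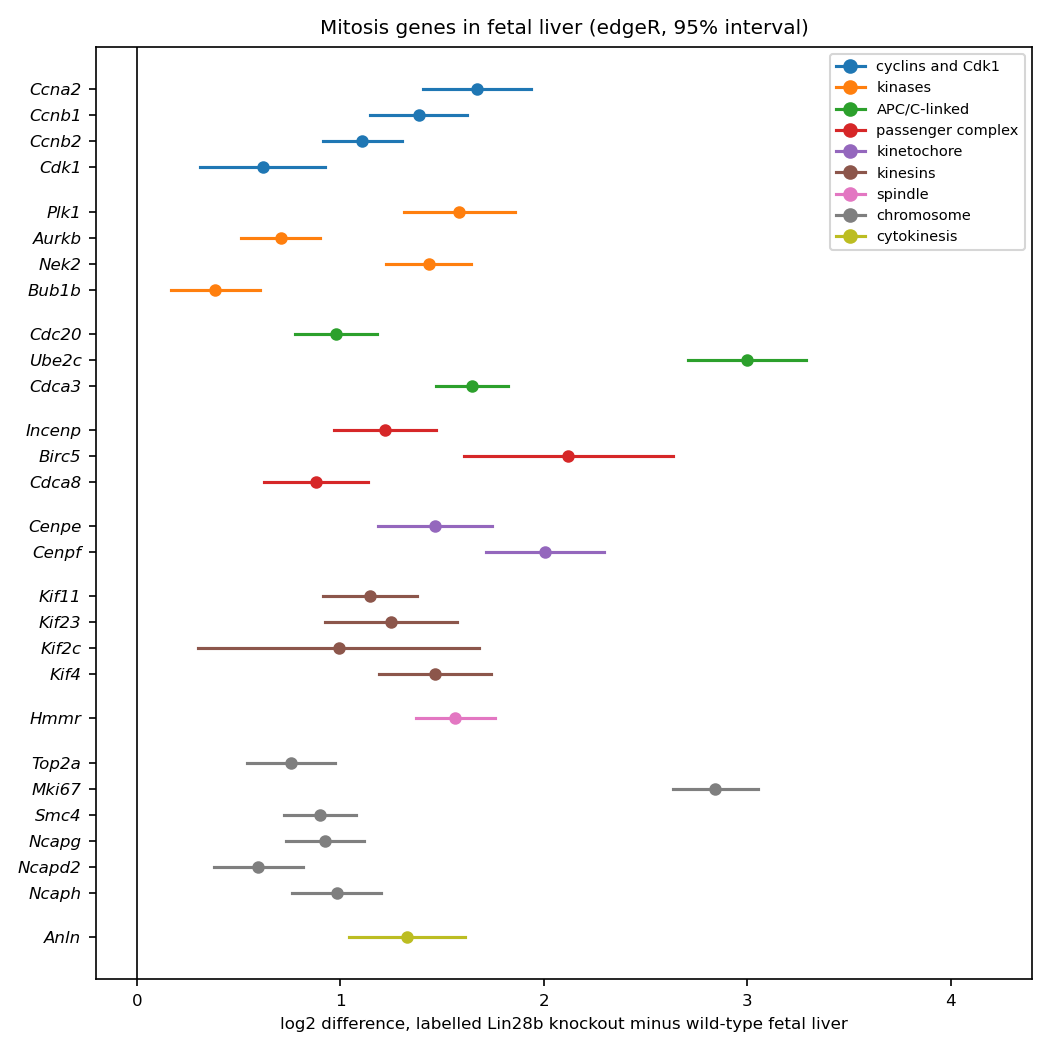
Log2 difference of 28 mitosis genes between the labelled Lin28b knockout and wild-type fetal liver (3 libraries each), coloured by role. Points are edgeR estimates and lines 95% intervals (t distribution with 10 residual degrees of freedom). All points lie right of 0, from 0.39 for Bub1b to 3.0 for Ube2c.

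The bone marrow lines labelled inducible LIN28B, with and without vavcre, were each compared with wild-type bone marrow. With vavcre, 14 of the 28 genes (50%) were higher than in wild-type bone marrow and 2 (7.14%) lower, against 12.5% and 14.3% of all genes. The median log2 difference was 0.30, and -0.09 over all genes. Without vavcre none was called in either direction (0.509% and 0.295% of all genes were called higher and lower), 4 had an unadjusted p under 0.05 and DESeq2 called 1 lower, and the median was -0.06. Each group has 2 libraries. No separate count of a transgene was used here. Lin28b itself was at 1.73 to 3.92 CPM with vavcre and 2.06 to 3.28 CPM without, against 0.0586 to 0.745 CPM in wild-type bone marrow.

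Plk1 had the largest difference. It was at 442 and 351 CPM with vavcre, 160 and 153 CPM without, and 137, 148 and 139 CPM in wild-type bone marrow (with vavcre against wild type, log2 difference 1.49, SE 0.13, adjusted p = 4.19e-06). Cdca8 was at 511 and 410 CPM, 260 and 217 CPM, and 200, 243 and 204 CPM in the same order (log2 difference 1.09, SE 0.13, adjusted p = 2.96e-05). Both genes were higher in each vavcre library than in every library of the other bone marrow groups. The level of Cdca8 with vavcre (460 ± 71.8 CPM, n = 2) was in the range of the labelled Lin28b knockout (443 ± 25.4 CPM, n = 3).

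The others that rose with vavcre were spread over the roles. They were Hmmr (0.80), the cyclins Ccnb2 (0.78) and Ccnb1 (0.63), Bub1b (0.77), Cdc20 (0.76), Aurkb (0.74), Ncaph (0.61), Smc4 (0.58), Kif11 (0.45), Anln (0.45), Cdca3 (0.31) and Ncapd2 (0.31), as log2 differences with SE 0.09 to 0.14. Mki67 fell by 0.58 on the log2 scale (SE 0.10, adjusted p = 0.00058): it was at 690 and 657 CPM with vavcre and 1010, 1008 and 1002 CPM in wild-type bone marrow. Ncapg, a condensin subunit like Ncaph and Ncapd2, fell by 0.28 (SE 0.10, adjusted p = 0.0404). Of these 16 calls, 11 were made under every alternative. Ncapg lost its call without wild-type bone marrow 5 or 6 or either vavcre library, without the filter on low counts and in a fit of only these groups. Ncapd2 lost it without any 1 of the wild-type bone marrow or vavcre libraries. Anln lost it without wild-type bone marrow 2 or 6 or vavcre library 4, Cdca3 without wild-type bone marrow 2 or vavcre library 4 or in a fit of only these groups, and Kif11 without vavcre library 6. Members of 1 complex gave unlike values. Incenp was at 194 and 188 CPM with vavcre against 250, 247 and 233 CPM (log2 difference -0.35, adjusted p = 0.0515), where its partner Cdca8 rose. Cdk1 was at 160 and 139 CPM against 188, 167 and 220 CPM (log2 difference -0.36, adjusted p = 0.0965), where the B cyclins rose.

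**Figure D3:**
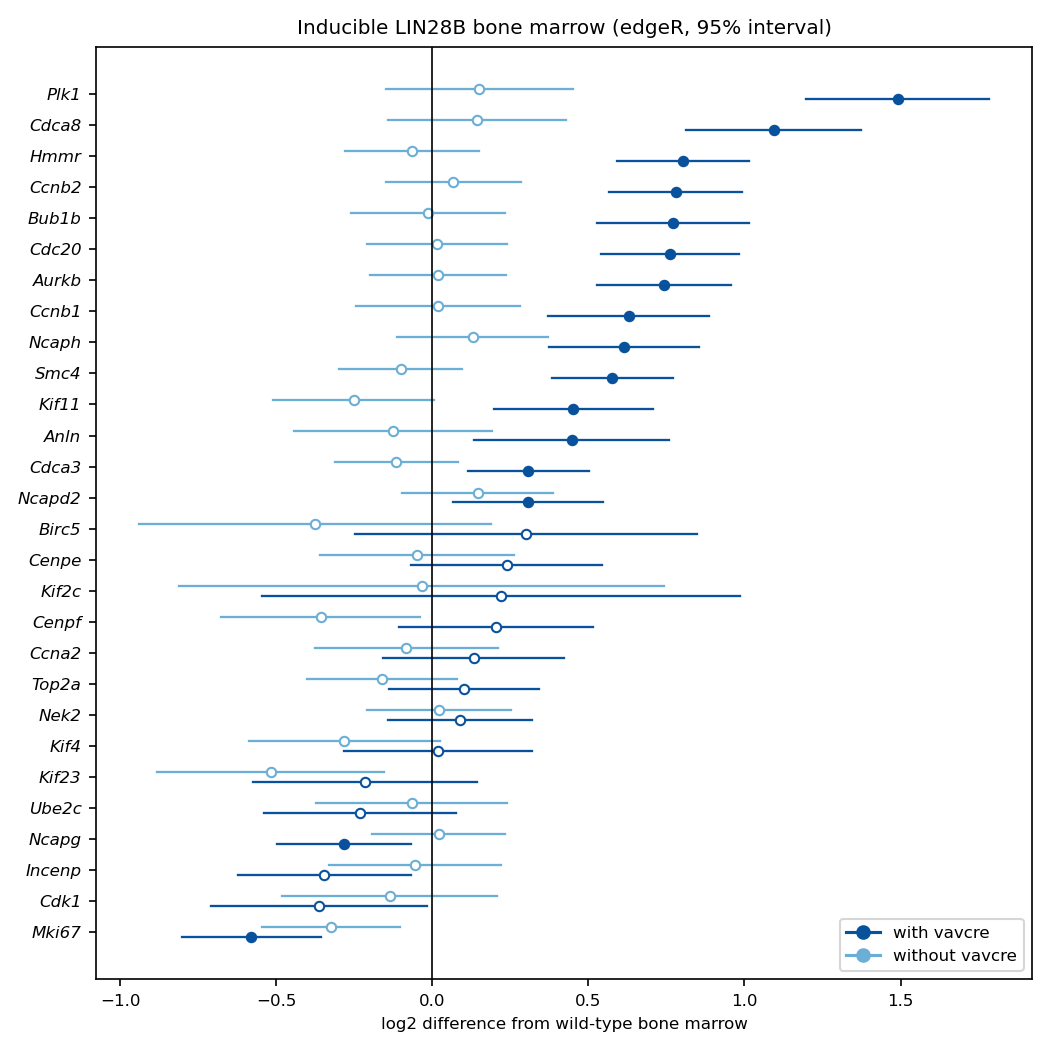
Log2 difference from wild-type bone marrow (3 libraries) of 28 mitosis genes in inducible LIN28B bone marrow with vavcre (dark, 2 libraries) and without it (light, 2 libraries), sorted by the former. Points are edgeR estimates, filled where called, and lines 95% intervals. With vavcre the values run from -0.58 (Mki67) to 1.49 (Plk1), and without it all lie between -0.52 and 0.15 with no call.

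The difference between both lines was itself tested. With vavcre, 14 genes were higher than without it and none was lower (9.37% and 11.3% of all genes), with a median log2 difference of 0.45 against -0.01 over all genes. Plk1 (1.34, SE 0.15), Cdca8 (0.95, SE 0.14), Hmmr (0.87, SE 0.11), Bub1b (0.78, SE 0.12), Cdc20 (0.75, SE 0.11), Aurkb (0.72, SE 0.11), Ccnb2 (0.71, SE 0.11) and Kif11 (0.70, SE 0.13) differed the most. DESeq2 called 1 gene lower, and 19 genes had an unadjusted p under 0.05. In a fit of only these 2 groups 8 genes were called higher. Of the 14 calls, Plk1, Cdca8, Hmmr, Bub1b, Aurkb, Kif11, Smc4 and Ccnb1 were made under every alternative tried. Where an alternative left 1 library in a line, the other groups supplied the spread, and the lone library is assumed to vary as they do. The vavcre libraries are those numbered 4 and 6 and the others 1 and 5, and whether they were prepared together is not given, so the line and its preparation cannot be told apart. Summed erythroid markers were 1168 to 1244 CPM with vavcre and 1039 to 1118 CPM without, and granulocyte markers 9806 to 14811 CPM against 6294 to 7246 CPM. Most of the granulocyte sums was Mpo, at 8707 and 10690 CPM with vavcre and 5728 and 5156 CPM without. Of 17 granulocyte markers 2 were called higher and none lower, and of 20 erythroid markers 2 higher and 3 lower. Sums were also higher with vavcre for lymphoid (138 to 154 against 81.6 to 94 CPM) and hepatocyte markers (362 to 400 against 259 to 265 CPM). The same held for monocyte and dendritic (345 to 418 against 293 to 306 CPM) and progenitor markers (10025 to 11749 against 6506 to 7033 CPM, mostly Mpo). Megakaryocyte sums were lower (614 to 624 against 657 to 671 CPM). The part of these markers in the result was not tested.

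Averaged over both lines, inducible LIN28B bone marrow had 10 genes higher and 1 lower (Mki67) than wild-type bone marrow, against 6.59% and 7.86% of all genes, and without wild-type bone marrow 2 the count of higher genes was 6. This mean contains both vavcre libraries and shares the wild-type libraries with the comparisons of each line, so its calls are not separate from theirs.

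Wild-type fetal liver was compared with wild-type bone marrow. Calls went both ways. There were 5 genes called higher (Cdk1, Ccna2, Bub1b, Ccnb2 and Cdca3), 17.9% of the 28, against 13.9% of all genes. The 6 called lower (Birc5, Cenpf, Mki67, Kif11, Top2a and Smc4) were 21.4%, against 13.2%. Whether these shares differ from those of all genes was not tested. The median log2 difference was -0.03, and -0.08 over all genes. Among the cyclin and Cdk1 genes 3 of 4 were called higher, and Ccnb1 had a difference of 0.29 (adjusted p = 0.0537). Of the 4 kinesins Kif11 was called lower, and Kif23, Kif4 and Kif2c had differences of -0.34, -0.31 and -0.02 (adjusted p = 0.0942, 0.077 and 0.99). Markers of other cells differed between these groups as well. Summed granulocyte markers were 5212 to 6794 CPM in fetal liver and 11061 to 13059 CPM in bone marrow (14 of 17 lower). Most of these sums was Mpo, at 4806 to 6296 and 9493 to 11440 CPM. Megakaryocyte markers were at 341 to 357 against 664 to 809 CPM (6 of 8 lower), and lymphoid markers at 169 to 211 against 82.4 to 88.5 CPM (4 of 11 higher). The part of these markers in the result was not tested.

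Mki67, Cenpf and Kif11 were called lower under every alternative. Mki67 was at 690, 680 and 676 CPM in fetal liver and 1010, 1008 and 1002 CPM in bone marrow, and fell by 0.56 on the log2 scale (SE 0.09, adjusted p = 0.000219). Cenpf fell by 0.59 (SE 0.13), from 176, 171 and 183 CPM in bone marrow to 101, 124 and 128 CPM, and Kif11 by 0.40 (SE 0.10), from 336, 340 and 340 CPM to 227, 286 and 256 CPM. The other 8 genes lost their call in at least 1 alternative, although their differences kept their direction. With 1 library left out, the log2 difference of Ccna2 was 0.37 to 0.50, of Cdk1 0.33 to 0.55, of Ccnb2 0.25 to 0.32 and of Top2a -0.36 to -0.23. Without wild-type bone marrow 2 or wild-type fetal liver 4 no gene was called higher, and without wild-type bone marrow 5 or wild-type fetal liver 5 only 1. The number called lower was 3 without wild-type bone marrow 5, wild-type bone marrow 6 or wild-type fetal liver 1. Wild-type fetal liver entered both this comparison and that of the labelled knockout: Mki67, Cenpf and Kif11 were low in it beside bone marrow, and were higher in the labelled knockout than in wild-type bone marrow too (4598 to 5266 CPM, 467 to 486 CPM and 518 to 627 CPM).

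**Figure D4:**
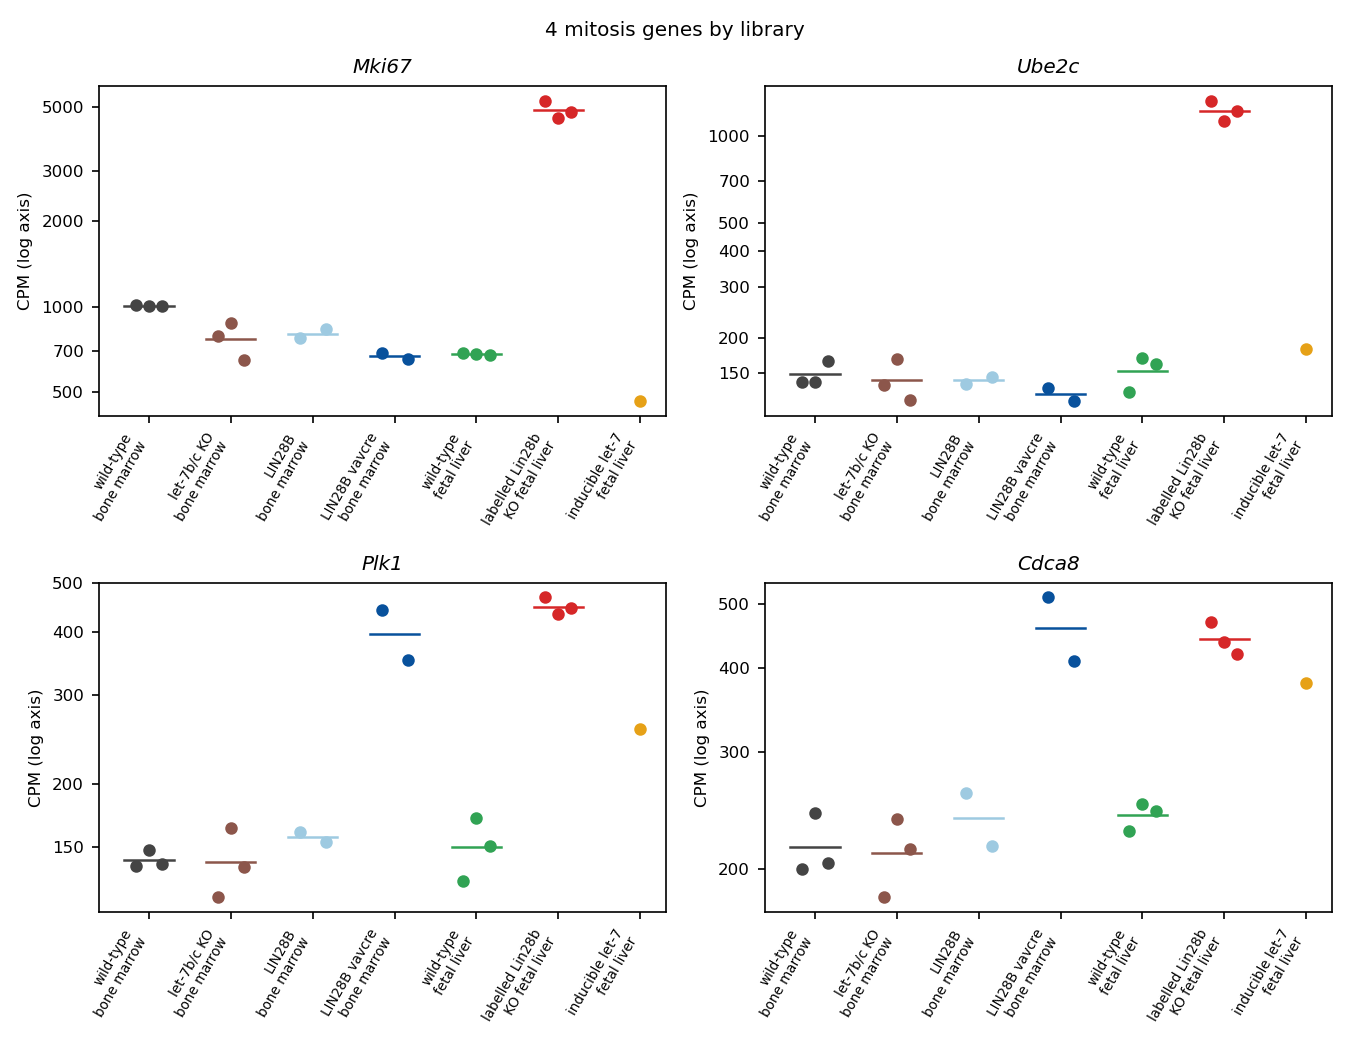
CPM of Mki67, Ube2c, Plk1 and Cdca8 by library (points) in the 7 groups, on log axes, with lines at the means of groups of 2 or 3 libraries. Mki67 and Ube2c are highest in the labelled Lin28b knockout (4598 to 5266 and 1133 to 1325 CPM), and Plk1 and Cdca8 are high there and with vavcre.

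The let-7b/c knockout in bone marrow was compared with wild-type bone marrow. Mki67 was the only gene called: it was at 790, 876 and 649 CPM against 1010, 1008 and 1002 CPM, and fell by 0.38 on the log2 scale (SE 0.09, adjusted p = 0.033). No gene was called higher, 6 had an unadjusted p under 0.05, and DESeq2 called 3 lower. Of all genes 1.33% were called higher and 0.922% lower. The call of Mki67 was lost without let-7b/c knockout 1, let-7b/c knockout 3 or any 1 of the wild-type bone marrow libraries 2, 5 and 6, and without let-7b/c knockout 2 the number of genes called lower was 2. Of the genes not called, Cenpf was at 114, 152 and 108 CPM against 176, 171 and 183 CPM (log2 difference -0.51, adjusted p = 0.0505). Kif11 (-0.32, adjusted p = 0.136), Anln (-0.30, adjusted p = 0.28) and Smc4 (-0.14, adjusted p = 0.438) also had all knockout libraries below the wild types. How many of all genes did so was not computed. Top2a had a difference of -0.26 and Hmmr of -0.23 (adjusted p = 0.205 each). Nearer to 0, Plk1 had a log2 difference of -0.02 (95% interval -0.29 to 0.25), Bub1b 0.01 (-0.21 to 0.23), Ccnb2 0.07 (-0.12 to 0.27) and Aurkb 0.05 (-0.15 to 0.24). The strain label differs between these groups, so the knockout and the strain cannot be told apart. Summed monocyte and dendritic markers were 2090 to 2606 CPM in the knockout and 457 to 555 CPM in the wild type (4 of 12 called higher). Granulocyte markers were at 15765 to 20367 against 11061 to 13059 CPM, with only 1 of 17 called higher. Most of the granulocyte sums was Mpo, at 13840, 16910 and 13560 CPM against 9493, 11440 and 9687 CPM. Megakaryocyte markers were at 345 to 509 against 664 to 809 CPM (4 of 8 called lower). The part of these markers in these values was not tested.

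Set against the mean of both LIN28B lines, the let-7b/c knockout had 13 genes lower and none higher, where 8% of all genes were lower and 10.5% higher. Plk1 fell by 0.84 (SE 0.11), Cdca8 by 0.65 (SE 0.11) and Hmmr by 0.60 (SE 0.08) on the log2 scale, and 14 genes had an unadjusted p under 0.05. For none of the 28 were the libraries of these groups apart, a count not made over all genes. The second group pools the lines with and without vavcre, so a gene that differed only with vavcre would overlap. All 13 genes were among the 14 that were higher with vavcre than without it. Both comparisons use the same LIN28B libraries, and high values with vavcre enter both, so this overlap is not separate support. Plk1 was at 140 CPM in the let-7b/c knockout, 157 CPM without vavcre and 397 CPM with it, and Cdca8 at 211, 238 and 460 CPM. The knockout was not tested against each line alone. The strain label differs here as well, and the line with vavcre and its preparation cannot be told apart. Without let-7b/c knockout 1 the number called lower was 7, and without let-7b/c knockout 3 it was 10, with 3 called higher.

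The inducible let-7 group is 1 fetal liver library, so it has no replicate and no test. A gene was counted when it was at least 1.5-fold from the wild-type fetal liver mean and outside the range of those 3 libraries. By this rule 6 of the 28 genes were higher (Ccnb2, Plk1, Aurkb, Birc5, Cdca8 and Kif2c) and 1 lower (Cenpf), where 19.2% of all genes were higher and 37.4% lower. The median log2 difference was 0.06, and -0.19 over all genes. Cdca8 was at 380 CPM (95% Poisson interval 373 to 388, counting error only) against 228, 250 and 245 CPM, and Plk1 at 257 CPM (251 to 264) against 128, 171 and 151 CPM. Cenpf was at 60.7 CPM (57.7 to 63.8) against 101, 124 and 128 CPM, and Mki67 at 467 CPM (459 to 475), below the 676 to 690 CPM of the wild types by 1.46-fold, just inside the 1.5-fold limit. Cdc20, 1.49-fold higher, lay just inside it on the other side. With the limit at 2-fold, Birc5 and Kif2c remained and Cenpf, 1.94-fold lower, did not, and with scaling by total counts 3 genes were higher and 2 lower by the 1.5-fold rule. The summed granulocyte markers of this library (18911 CPM, against 5212 to 6794 CPM in wild-type fetal liver) lay outside the range of the wild types. Most of that sum was Mpo (16860 CPM, against 4806 to 6296 CPM). Monocyte and dendritic markers (1001 CPM, against 403 to 452 CPM) lay outside it too. So did every other marker list. Hepatocyte markers (226 against 123 to 132 CPM) and progenitor markers (17685 against 5682 to 7203 CPM, mostly Mpo) were above it. Erythroid (340 against 581 to 873 CPM) and megakaryocyte markers (308 against 341 to 357 CPM) were below it. Lymphoid (43.1 against 169 to 211 CPM) and stroma and endothelium markers (2.17 against 6.02 to 8.62 CPM) were below it as well. The part of these markers in these values was not tested.

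Ratios between genes within a library do not depend on its size and show how the list changed in its proportions. These pairs were chosen with the values known and are a description. The ratio of Mki67 to Top2a counts was 3.19 to 3.30 in the labelled Lin28b knockout, 0.714 to 0.965 in both wild types, the let-7b/c knockout and LIN28B without vavcre, 0.555 and 0.571 with vavcre, and 0.633 in the inducible let-7 library. The ratio of Ube2c to Cdc20 had the same order, at 3.13 to 3.75, 0.788 to 1.12, 0.483 and 0.526, and 0.697. That of Plk1 to Mki67 ran the opposite way: 0.0890 to 0.0944 in the labelled knockout, 0.136 to 0.252 in the groups between, 0.641 and 0.535 with vavcre and 0.551 in the inducible let-7 library. The ratio of Cdca8 to Incenp, members of 1 complex, was 2.63 and 2.18 with vavcre, 1.53 in the inducible let-7 library and 0.761 to 1.21 in all the others. Both other ratios computed had the vavcre libraries highest. That of Ccnb2 to Cdk1 was 2.41 and 2.15 with vavcre, 1.67 in the inducible let-7 library, and 1.29 to 1.33 in the labelled knockout, inside the 0.776 to 1.45 of the rest. That of Ccnb1 to Ccna2 was 1.78 and 1.48 with vavcre and 0.835 to 0.891 in the labelled knockout, and the inducible let-7 library, at 1.34, lay inside the 0.962 to 1.38 of the rest. Over the 28 genes, the difference between lines with and without vavcre and that between the inducible let-7 library and wild-type fetal liver, which share no library, had Pearson's r = 0.47 and Spearman's rho = 0.48 (n = 28 genes, which are not independent replicates). For the vavcre difference and that of the labelled knockout from wild-type fetal liver they were -0.21 and -0.13.

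**Figure D5:**
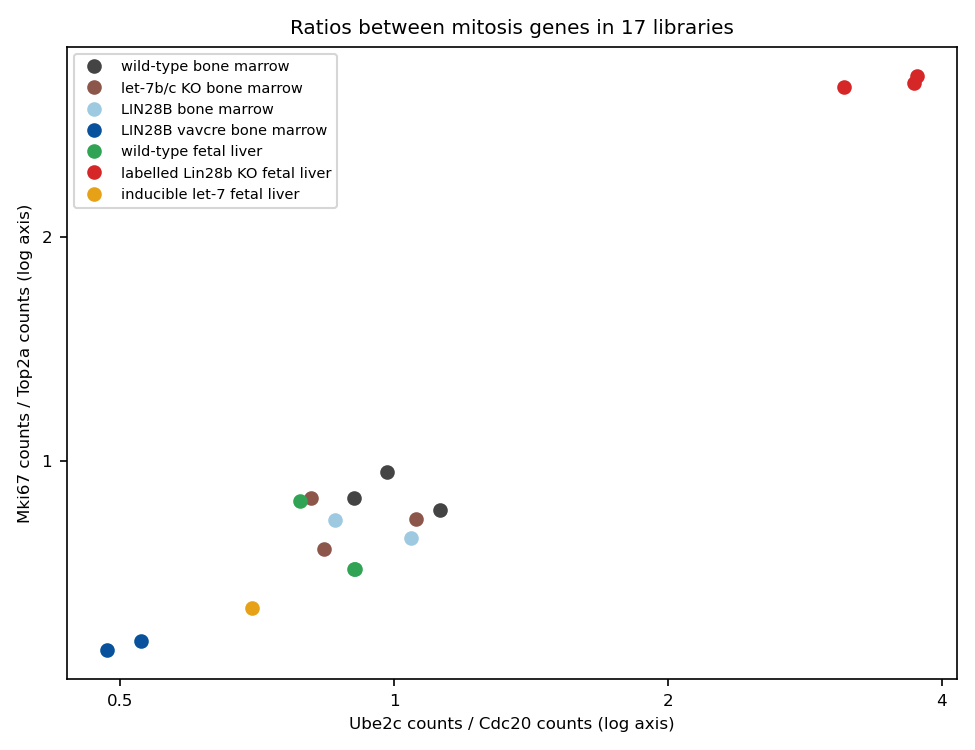
Ratio of Mki67 to Top2a counts against the ratio of Ube2c to Cdc20 counts in 17 libraries (points, coloured by group), on log axes. The labelled Lin28b knockout lies at the upper right (above 3 on both axes), the vavcre libraries at the lower left (below 0.6 on both axes), and the inducible let-7 library next to them.

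Other genes of division were read from lists chosen by function. Of 98 tested other mitosis genes, 63 were higher and 9 lower in the labelled knockout than in wild-type fetal liver (median log2 difference 0.59), against 20.8% and 23% of all genes. The largest was that of Cdc25b, a phosphatase that activates Cdk1 (5.25 against 0.164 CPM, log2 difference 4.92, SE 0.70). Cdc25b has 2 listed transcripts and 363 counts over all 17 libraries, so it is measured on few of its reads. Next were Cit, the citron kinase of cytokinesis (225 against 33.9 CPM), and Fzr1, the late mitotic activator of the anaphase-promoting complex (880 against 151 CPM). In wild-type fetal liver against bone marrow 16 were higher and 7 lower, against 13.9% and 13.2% of all genes. In the let-7b/c knockout against bone marrow none was higher and 1 lower, against 1.33% and 0.922%. With vavcre, 35 of the 98 were higher than without it and 6 lower (median 0.35), against 9.37% and 11.3% of all genes. Oip5 rose by 1.04 (SE 0.18) and Kif18a, a kinesin of chromosome alignment, by 1.03 (SE 0.17), while Kifc1 fell by 1.53 (SE 0.49) and Cenpb by 1.15. Aurka and Bub1 could not be read, at no more than 0.219 and 0.0454 CPM in any library.

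Among regulators of these genes, Foxm1 was higher in the labelled knockout (173, 148 and 143 CPM against 82.6, 90.5 and 89.9 CPM, log2 difference 0.82, SE 0.11), and so was Mybl2, which encodes B-Myb (0.91, SE 0.08). Both rises were smaller than the members' median of 1.24. In the 14 tested transcription genes, 10 were higher there and none lower (20.8% and 23% of all genes), E2f2 by 4.80 and Rb1 by 3.35. E2f2 has 2 listed transcripts, so reads that fit both were set aside, and it was at 2.8 CPM in wild-type fetal liver. With vavcre against without it, Foxm1 rose by 0.41 (SE 0.13, adjusted p = 0.0368) and Mybl2 had a difference of 0.08 (adjusted p = 0.605). The inducible let-7 library had Foxm1 at 41.4 CPM and Mybl2 at 261 CPM, against 82.6 to 90.5 and 200 to 215 CPM in wild-type fetal liver.

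The genes of G1/S and DNA replication gave other counts than the mitosis genes. In wild-type fetal liver against bone marrow, 22 of 41 were higher and 1 lower (median 0.39, against 13.9% and 13.2% of all genes). Ccne1 was higher by 1.79 and Gins2 by 0.97. Of the 28 mitosis genes, 5 were called higher there and 6 lower. In the labelled knockout 12 of 41 were higher and 6 lower (median 0.10, against 20.8% and 23% of all genes), with Ccne1 up by 1.95 and Rrm2 by 1.85, where all 28 mitosis genes were higher. Whether the lists differ was not tested. With vavcre against without it, 9 were higher and 1 lower (9.37% and 11.3% of all genes). Of 9 tested genes that restrain the cycle, 7 were lower in fetal liver than in bone marrow (13.2% of all genes), Cdkn2c the most (0.480 against 14.4 CPM), and 6 were higher in the labelled knockout (20.8% of all genes), with Cdkn2c at 33.4 CPM and Cdkn1b, which encodes p27, at 46.6 against 5.72 CPM. Cdkn2c has 2 listed transcripts, so reads that fit both were set aside. In the labelled knockout, mitosis genes and several inhibitors of cyclin-dependent kinases were both high. With vavcre, Cdkn1b was at 5.09 CPM against 13 CPM without it (a fall of 1.36 on the log2 scale, SE 0.28, adjusted p = 0.00343).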

How the data were processed

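Gene-level counts came from 17 libraries. The deposited values are counts of reads per RefSeq transcript that the authors made from the sequenced reads; per the submitters' processing notes, the tools were cutadapt, TopHat2 and HTSeq, and the build was mm10. Their versions, settings and strand use are not given in sources at hand. Read trimming, mapping and counting were therefore not repeated. Per the labels, libraries were made with a low-input kit. Counts of a gene's transcripts were summed, through RefSeq GRCm38.p6 and GENCODE vM21 names (33435 and 191 of 33818 accessions; 192 stayed unnamed and kept their own rows). A read matching several transcripts was left uncounted by HTSeq (23.8% to 29.8% ambiguous), which lowers genes with several transcripts.

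All 17 libraries were fitted at once in 7 groups with edgeR 4.0.16 (R 4.3.3): TMM factors, filterByExpr, quasi-likelihood F test, 10 residual degrees of freedom, 13558 genes, Benjamini-Hochberg adjusted p under 0.05. Every adjusted p in the text comes from this fit unless another tool is named. Standard errors are the log2 difference divided by the square root of F. Members, lists and comparisons were chosen with earlier results of these data known, and no list is independent support. All members were described, and other genes were named by a rule: per list and comparison, the 5 with the largest change among those called and at 5 CPM or more in the higher group, with Foxm1, Mybl2, Aurka and Bub1 always shown. The single inducible let-7 library was compared by fold on log2 of CPM plus 0.5. Alternatives were DESeq2 1.42.0, RLE scaling, no filter on low counts, genes of 1 transcript only, library sizes without marker lists, fits of only the groups compared, leaving out each library and, added after seeing the data, a replicate block. The fit was tested on simulated counts first. 1 gene that the rule would name is not reported here.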

Additional observations from a re-analysis of the deposited data

Results flagged for a closer look

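For 14 of the 28 mitosis genes, the difference from wild-type bone marrow was not the same in both LIN28B lines, by the fit's own test of vavcre against no vavcre (edgeR, adjusted p under 0.05). All 14 were higher with vavcre, where 9.37% of all genes were called higher and 11.3% lower. The log2 difference was 1.34 for Plk1, 0.95 for Cdca8, 0.87 for Hmmr, 0.78 for Bub1b, 0.75 for Cdc20, 0.72 for Aurkb, 0.71 for Ccnb2 and 0.70 for Kif11. It was 0.68 for Smc4, 0.61 for Ccnb1, 0.57 for Anln, 0.56 for Cenpf, 0.48 for Ncaph and 0.42 for Cdca3. In all 14 genes both vavcre libraries stood above both libraries without it. Such a gap was common here: 25 of the 28 genes did not overlap, 5 of them with vavcre lower. The share over all genes was not computed. Each line has 2 libraries.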

How the results depend on the processing

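In the labelled Lin28b knockout, 28 of its 29 calls among 31 members were made under every alternative, the exception being Kif2c, and 28 to 29 were made when any 1 library was left out. Over single genes, 543 values kept their side of the threshold and 34 calls were lost under other tools, filters, scalings or the replicate block, and 458 and 92 when libraries were left out. None reversed. DESeq2 called 2 genes lower in the mean of the LIN28B lines, 1 lower without vavcre, 1 lower with against without vavcre (1 also with RLE scaling) and 3 lower in the let-7b/c knockout. Without a filter on low counts, 1 was lower with vavcre against wild type and 2 in the let-7b/c knockout, as with genes of 1 transcript only. Fits of only the groups compared called 8 genes higher with against without vavcre, 0 lower in the let-7b/c knockout, and 7 lower in it against the LIN28B lines. For the inducible let-7 library, a limit of 2-fold left 2 genes higher and 0 lower, and scaling by total counts 3 and 2. Leaving out 1 library gave 0 to 5 genes higher and 3 to 4 lower in fetal liver against bone marrow, 6 to 10 higher in the mean of the LIN28B lines, and 11 to 13 higher and 1 to 2 lower with vavcre (median 0.279 to 0.3622). It gave a median of -0.0979 to -0.0136 without vavcre, 11 to 13 higher with against without vavcre, 0 to 2 lower in the let-7b/c knockout, and 0 to 3 higher and 7 to 13 lower in it against the LIN28B lines. The cause of these changes was not tested, apart from the smaller number of libraries in such fits. Only the mean of the LIN28B lines and wild-type bone marrow share 2 library numbers (5 and 6). Deviations of same-numbered libraries from their group means had Pearson's r of -0.04 and 0.03 there, over 13558 genes. With so few libraries in a group this cannot decide pairing, so whether the numbers pair libraries is not known. With a replicate block in the fit of all 17 libraries, an alternative chosen after seeing the data that leaves 4 residual degrees of freedom, 1 gene was higher and 0 lower, and the median was 0.1416 (0.0955 without the block). For the other comparisons no paired analysis was possible because the groups share fewer than 2 replicate numbers. Birc5, Kif2c and the 9 genes outside the 28 have 2 to 6 transcripts and few counted reads, while members with 1 transcript have at least 1157 counts in each library.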
